A study of Mus musculus with 16 samples.

Results

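The genes described here encode the receptor chains, Janus kinases and STAT transcription factors through which interleukin 4 (IL-4) and interleukin 10 (IL-10) signal. They were chosen by symbol: Il4ra, Il13ra1, Il2rg, Il10ra, Il10rb, Jak1, Jak3, Tyk2, Stat3 and Stat6. All 10 were found, each once, among the 36722 genes of the deposited table, and all 10 passed the filter on low values. RNA came from lumbar dorsal root ganglia (DRG, levels L3 to L5), where sensory neurons lie among satellite glia, Schwann cells and resident immune cells. The mice were C57BL/6, and every group had received 20 µl of 2% carrageenan, a sulphated seaweed polysaccharide that inflames the paw, so none of the groups is free of inflammation. After 6 days they were given an intrathecal injection, and ganglia were collected after a further 6 hours. The vehicle group received PBS (n = 5 libraries). The fusion protein group received 1 µg of IL4-10 FP, in which both cytokines are joined in a single molecule (n = 6). The combination group received 0.5 µg each of unlinked IL4 and IL10 (n = 5). The labels do not say whether each library came from a separate mouse, so p-values measure the spread between these libraries.

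IL-4 binds the alpha chain encoded by Il4ra, which then pairs either with the common gamma chain (Il2rg) in the type I receptor, found mainly on blood-derived cells, or with the IL-13 receptor alpha chain (Il13ra1) in the type II receptor, found on many other cells. IL-10 binds Il10ra, whose expression is largely limited to immune cells, and recruits the widely expressed Il10rb. The gamma chain carries the kinase Jak3, the alpha chains of both receptors carry Jak1, and Il10rb and Il13ra1 carry Tyk2. IL-4 signals chiefly through Stat6 and IL-10 through Stat3, both of which can also induce genes of their own pathway. The injected cytokines are proteins and add no RNA of their own to the libraries.

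The values of the deposited table are on a variance-stabilised log2 scale. They decode to whole numbers, called scaled values below, which were set to a common scale by the submitters and are not read counts. The lowest scaled value, called the floor, is 1 in all libraries but 2, fusion protein replicates 5 and 6, which together hold 34 values at 0. The labels number the libraries 1 to 8 and 12 to 19, for a reason not given there. Numbers from 12 up, called late below, hold all combination libraries, fusion protein replicates 5 and 6 and vehicle replicate 5, so this split and the combination are largely confounded. The scaled values summed to between 16.7 and 20.9 M over the 16 libraries, and the read depth is unknown. By group the sums were 17.2 to 18.7 M in vehicle (median 17.7), 16.7 to 19.1 M with the fusion protein (17.8) and 18.2 to 20.9 M with the combination (19.7). The tissue label was checked against markers: all 15 neuronal, all 9 satellite glial and all 9 Schwann cell markers passed the filter. Among defining neuronal genes the RNA-binding protein Rbfox3 had a median scaled value of 2376 in vehicle.

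The promoters of Il13ra1, Il2rg and Tyk2 are shown because these were the members whose 6 fusion protein libraries all lay outside the range of the 5 vehicle libraries, both receptor chains above it and the kinase below it. Of the 10 members 2 thus lay wholly above and 1 wholly below, against 7.76% and 6.57% of all tested genes. The sequences are from RefSeq, build GRCm38.p6, and run 5′ to 3′ along the strand of the gene over the 250 bases before its start site. They cover chrX:36111858-36112107 (plus strand), chrX:101268256-101268505 (minus strand) and chr9:21131276-21131525 (minus strand). Capitals mark matches to CCGGAAG, the core of ETS family sites, to the CCAAT box and to the GC box GGGCGG, on either strand.
Il13ra1: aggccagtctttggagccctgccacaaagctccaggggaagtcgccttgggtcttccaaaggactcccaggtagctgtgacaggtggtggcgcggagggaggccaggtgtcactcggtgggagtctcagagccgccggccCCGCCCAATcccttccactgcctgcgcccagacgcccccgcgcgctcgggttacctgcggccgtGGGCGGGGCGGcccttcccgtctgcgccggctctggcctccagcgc
Il2rg: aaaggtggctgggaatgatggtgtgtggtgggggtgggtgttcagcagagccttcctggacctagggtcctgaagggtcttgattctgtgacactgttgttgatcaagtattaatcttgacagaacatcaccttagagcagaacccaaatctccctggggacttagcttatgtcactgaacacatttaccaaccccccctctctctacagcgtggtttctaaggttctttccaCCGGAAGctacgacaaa
Tyk2: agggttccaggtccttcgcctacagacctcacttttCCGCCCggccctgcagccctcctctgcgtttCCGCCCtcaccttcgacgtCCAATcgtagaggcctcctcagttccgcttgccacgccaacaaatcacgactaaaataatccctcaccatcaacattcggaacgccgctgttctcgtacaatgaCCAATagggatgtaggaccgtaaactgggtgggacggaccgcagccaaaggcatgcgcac
Of the 10 members, 8 had an entry in the promoter table, and Il10ra and Il10rb were without one. Neither TTCNNNNGAA, the spacing that STAT6 prefers, nor TTCNNNGAA, the spacing of other STAT proteins, nor GAAANNGAAA, the core of the interferon-stimulated response element, was found on either strand in the 250 bases of any of the 8. Over 32851 mouse promoter windows of the same length, 5.85%, 7.02% and 2.98% held these patterns. The ETS core occurred in Il2rg alone of the 8, from base -17 before its start (6.91% of all windows), and the octamer ATGCAAAT, a site of POU factors, in Il4ra alone, from base -139 (1.6%), which lies past the first exonic base of the GENCODE annotation, since there only the first 99 bases of the RefSeq window precede it. GC boxes were found in the windows of 6 of the 8 and CCAAT boxes in 4, against 32.7% and 33.8% of all windows. The GC boxes of Jak1 and Il4ra also lie past the first annotated exonic base, and 4 of the 6 genes hold one before it. In Il13ra1 a GC box and the CCAAT box overlap. A match is a description of the letters and not a shown site.

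Levels of different genes were compared per kilobase of exonic sequence. In vehicle libraries Jak1 was the most abundant member (1607 ± 83.8 scaled values per kb, SD, n = 5), followed by Stat3 (658 ± 36) and Stat6 (507 ± 16.4). Il10rb (171 ± 9.39) and Il4ra (164 ± 39.7) came next and could not be ordered, because their ranges over the vehicle libraries overlapped. Il13ra1 stood at 93.3 ± 10.3, below Il4ra and above Tyk2 (40.1 ± 3.68) with no overlap on either side. Il10ra (26.0 ± 7.3), Jak3 (22.8 ± 3.7) and Il2rg (18.6 ± 1.56) were the lowest, and from Tyk2 downward each range overlapped that of the next gene. The chains and the kinase best known from immune cells thus lay lowest in the ganglion, and the broadly expressed kinase Jak1 and both STAT genes highest. Among these low genes, whose ranges overlap, Il2rg stood at rank 10 in vehicle, 8 with the fusion protein and 9 with the combination. Il10ra stood at rank 8 in vehicle and 7 in both treated groups, and Jak3 was last in both. Per kb, Il13ra1 exceeded Il2rg in every library, by 4.35 to 6.09 times in vehicle. The factor was 2.13 to 6.61 with the fusion protein and 2.69 to 6.86 with the combination, ranges that overlap. Exons of Il2rg share 728 bases with those of Gm20489, and exons of Il10rb 569 with those of Gm21970, each on the same strand. Il4ra shares 571 exonic bases with Gm44876 on the opposite strand. Reads in these stretches may not have been told apart, which may affect the levels, ranks and ratios of these genes.

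**Figure D1:**
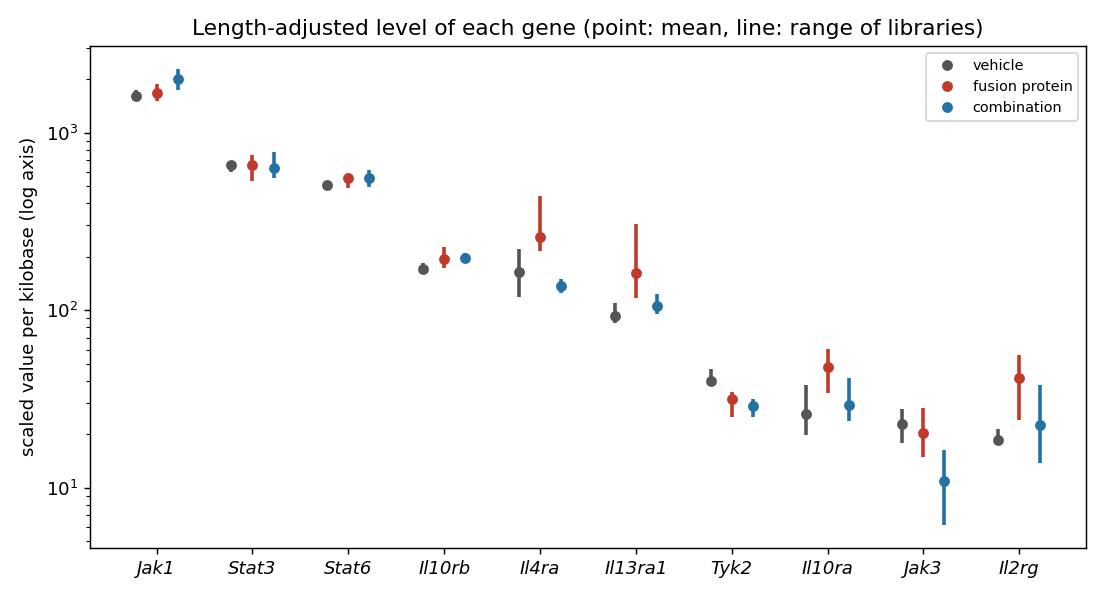
Scaled value per kilobase of exonic sequence (log axis) of the 10 members, ordered by the vehicle mean; points are group means and lines the range over the libraries of vehicle (n = 5), fusion protein (n = 6) and combination (n = 5). Jak1, Stat3 and Stat6 lie above the receptor chains in all 3 groups, and the lines of Il4ra, Il13ra1, Il2rg and Il10ra with the fusion protein reach higher than those of vehicle.

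The first comparison asks how the fusion protein changed these genes against vehicle. Of the 10 members 4 rose, 1 fell and 5 did not pass (limma, Benjamini-Hochberg adjusted p under 0.05 over all tested genes). The 4 that rose were receptor chains, Il4ra, Il13ra1, Il2rg and Il10ra, and the gene that fell was the kinase Tyk2. Over all 13385 tested genes 25.8% were called, 12.0% higher and 13.7% lower, so a called gene is common in this comparison. The median log2 difference of the 5 receptor chains was 0.51, against -0.02 over all tested genes, and that of the 3 kinases was -0.10. The scaled values behind these counts follow by role.

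Il4ra (ENSMUSG00000030748, GRCm38 chromosome 7, 125552120 to 125579474) encodes the chain that binds IL-4 and is shared by both IL-4 receptors. Its scaled values were 1327, 1037, 819, 706 and 1024 in vehicle, ran from 1289 over a median of 1335 to 2627 with the fusion protein, and were 751, 812, 900, 782 and 846 with the combination. The fusion protein libraries lay above all vehicle libraries but replicate 1 (1327), and above every combination library. The mean was 1.59 times that of vehicle, and the log2 difference was 0.59 ± 0.16 (SE, adjusted p = 0.0124). Fusion protein replicate 1, at 2627, stood apart from the other 5, and without it the difference was 0.44 (adjusted p = 0.00633). Within label numbers 1 to 8 alone (4 libraries against 4) it was 0.71 and missed the threshold (adjusted p = 0.0807).

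Il13ra1 (ENSMUSG00000017057, chromosome X, 36112110 to 36171259), the partner chain of the type II receptor, had scaled values of 345, 407, 314, 352 and 314 in vehicle and of 433 to 1130 with the fusion protein, with a median of 518. Every fusion protein library lay above every vehicle library. Over all tested genes 7.76% showed such a separation upward and 6.57% downward. The mean was 1.75 times that of vehicle and the log2 difference 0.58 ± 0.16 (adjusted p = 0.0112). Replicate 1 was again the highest, at 1130, and without it the difference was 0.41 (adjusted p = 0.00153). Within label numbers 1 to 8 it was 0.72 (adjusted p = 0.0467).

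Il2rg (ENSMUSG00000031304, chromosome X, 101264378 to 101268255), the common gamma chain of the receptors for IL-2, IL-4, IL-7, IL-9, IL-15 and IL-21, was low in vehicle, not far above the filter value of 31.8, with scaled values of 51, 43, 42, 43 and 43. With the fusion protein it ran from 57 over a median of 104 to 134, again without overlap. The mean was 2.23 times that of vehicle, and the log2 difference was 0.51 ± 0.11 (adjusted p = 0.00188). The transform compresses low values, and on the scale of log2 of the scaled value plus 1 the difference was 1.09. Replicate 6, and not replicate 1, was the highest library of this gene. Within label numbers 1 to 8 the difference was 0.42 (adjusted p = 0.0226).

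Il10ra (ENSMUSG00000032089, chromosome 9, 45253837 to 45269149), the chain that binds IL-10, had scaled values of 90, 90, 133, 69 and 72 in vehicle and of 120 to 212, with a median of 167, with the fusion protein. Only vehicle replicate 3 (133) reached into the fusion protein range. The mean was 1.84 times that of vehicle and the log2 difference 0.50 ± 0.10 (adjusted p = 0.00154), or 0.89 on the scale of log2 of the scaled value plus 1. Without replicate 1 of the fusion protein it was 0.46 (adjusted p = 0.00289), and within label numbers 1 to 8 it was 0.45 (adjusted p = 0.0325).

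Il10rb (ENSMUSG00000022969, chromosome 16, 91406164 to 91425834), the accessory chain shared with the receptors of IL-22 and interferon lambda, had scaled values of 631, 675, 631, 699 and 613 in vehicle and of 656 to 867 with the fusion protein. The groups overlapped, and the log2 difference of 0.16 ± 0.06 did not pass (95% interval 0.028 to 0.296, adjusted p = 0.0683). It passed under 5 of 30 alternatives, among them quantile normalization (0.18, adjusted p = 0.0208). The ratio of Il10ra to Il10rb per kb had a median of 0.145 in vehicle (0.107 to 0.229), 0.244 with the fusion protein (0.179 to 0.299) and 0.14 with the combination (0.114 to 0.225).

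**Figure D2:**
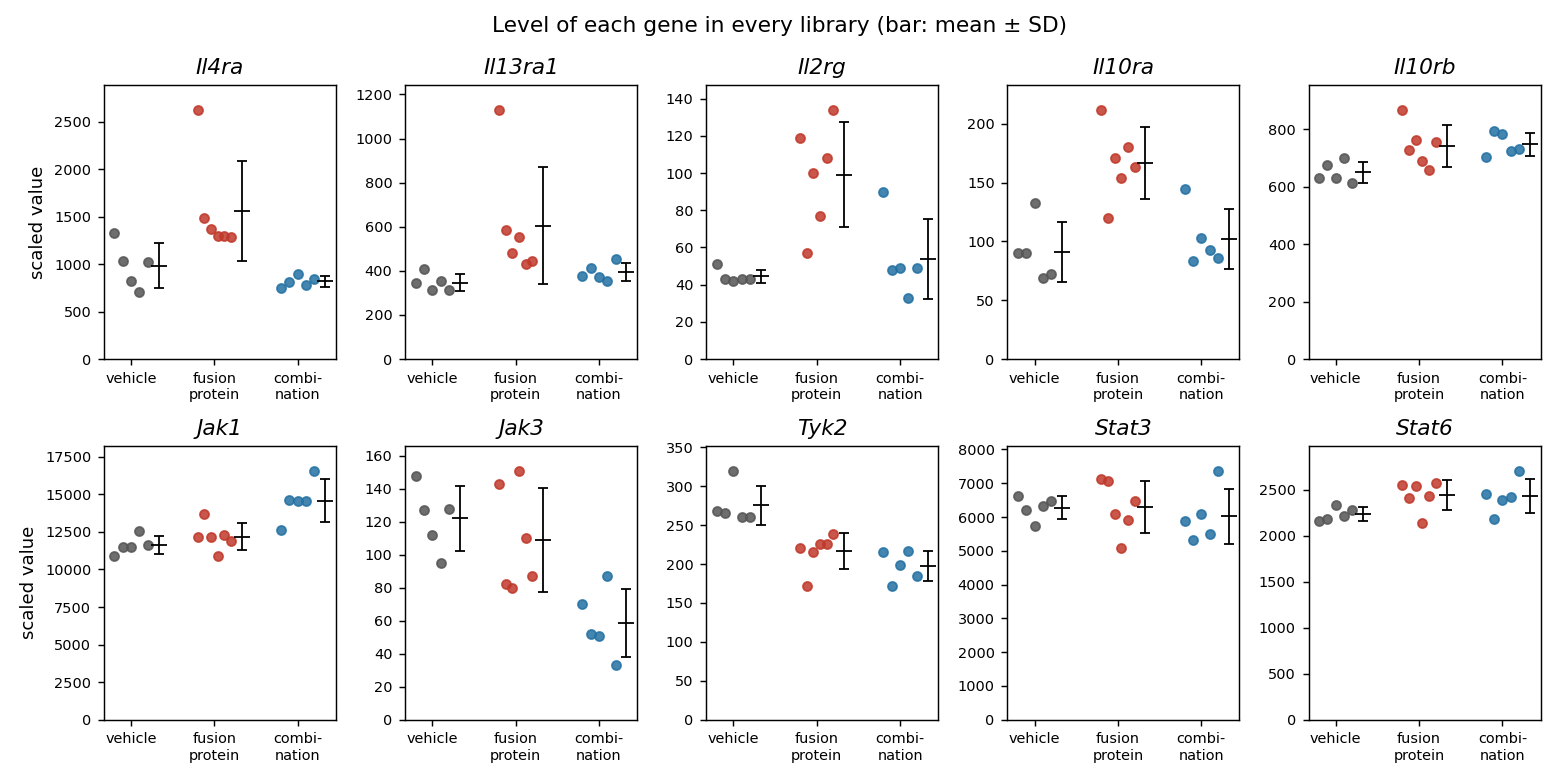
Scaled value of each member in every library of vehicle (n = 5), fusion protein (n = 6) and combination (n = 5), each panel on a linear axis from 0; bars give the mean ± SD. Fusion protein replicate 1, the leftmost red point, is far above the other libraries in Il4ra (2627) and Il13ra1 (1130), while in Il2rg all 6 red points lie between 57 and 134 and all vehicle points between 42 and 51.

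Of the kinases, Tyk2 (ENSMUSG00000032175, chromosome 9, 21104068 to 21131243) had scaled values of 268, 266, 320, 261 and 261 in vehicle and of 172 to 239 with the fusion protein, with a median of 223. All 6 lay below every vehicle library, and the log2 difference was -0.24 ± 0.07 (adjusted p = 0.0136). This call ended without vehicle replicate 3 (-0.20, adjusted p = 0.0507). It also ended when trends of each library with GC content and gene length were removed (-0.10, adjusted p = 0.247). Jak1 (-0.086 to 0.217, 95% interval of the log2 difference) and Jak3 (-0.334 to 0.127) did not pass.

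Of the transcription factors, Stat3 had scaled values of 6619, 6210, 5725, 6331 and 6482 in vehicle and of 5073 to 7132 with the fusion protein. Its log2 difference was -0.00 ± 0.09 with a 95% interval from -0.194 to 0.185. Stat6 had scaled values of 2158, 2180, 2332, 2215 and 2281 in vehicle and of 2138 to 2566 with the fusion protein. Its difference of 0.12 ± 0.06 did not pass (adjusted p = 0.174), but it passed with the GC and length trends removed (0.16, adjusted p = 0.0335).

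Markers of macrophages, and some of monocytes and neutrophils, rose beside the receptor chains. Of 18 macrophage markers 11 rose, 0 fell and 7 did not pass, with a median log2 difference of 0.45 against -0.02 over all tested genes. Their summed scaled value was 4072 to 7166 in vehicle, 6687 to 16393 with the fusion protein and 5550 to 7557 with the combination, and no marker of the list was at the floor. Fusion protein replicate 1 had the highest sum (16393) and the highest Il4ra, Il13ra1 and Il10ra, while Il2rg was highest in replicate 6. Replicate 2 had the lowest sum of its group (6687) with the lowest Il2rg and Il10ra, but the next to highest Il4ra (1492) and Il13ra1 (586). In vehicle, replicate 1 had the highest sum (7166) and the highest Il4ra and Il2rg, whereas Il13ra1 was highest in replicate 2 and Il10ra in replicate 3. Of 12 monocyte and neutrophil markers 11 were tested, of which 4 rose, 0 fell and 7 did not pass, with sums of 2219 to 5674 in vehicle and 3287 to 12762 with the fusion protein. The 4 were Ccr2 (1.64 ± 0.22), Ly6c2, Csf3r and Cxcr2. Of 15 lymphocyte markers 5 were tested, and 1 of them rose, the T cell kinase Lck (0.42 ± 0.09, adjusted p = 0.00188). Their sums were 226 to 477 in vehicle and 261 to 569 with the fusion protein. Of 7 mast cell markers 5 were tested and 1 rose, the chymase Cma1, with sums of 1693 to 1978 in vehicle and 1515 to 1997 with the fusion protein. Of 9 satellite glial markers 2 fell (Kcnj10 and Sox10). Of 15 neuronal markers 2 rose (Calca and Tac1) and 1 fell (Rbfox3), and of 12 endothelial and fibroblast markers 2 rose (Pecam1 and Dcn) and 2 fell (Col1a1 and Col1a2). The part of these cells in the receptor differences was not tested. In whole ganglia, more cells of a type and more RNA per cell cannot be told apart.

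**Figure D3:**
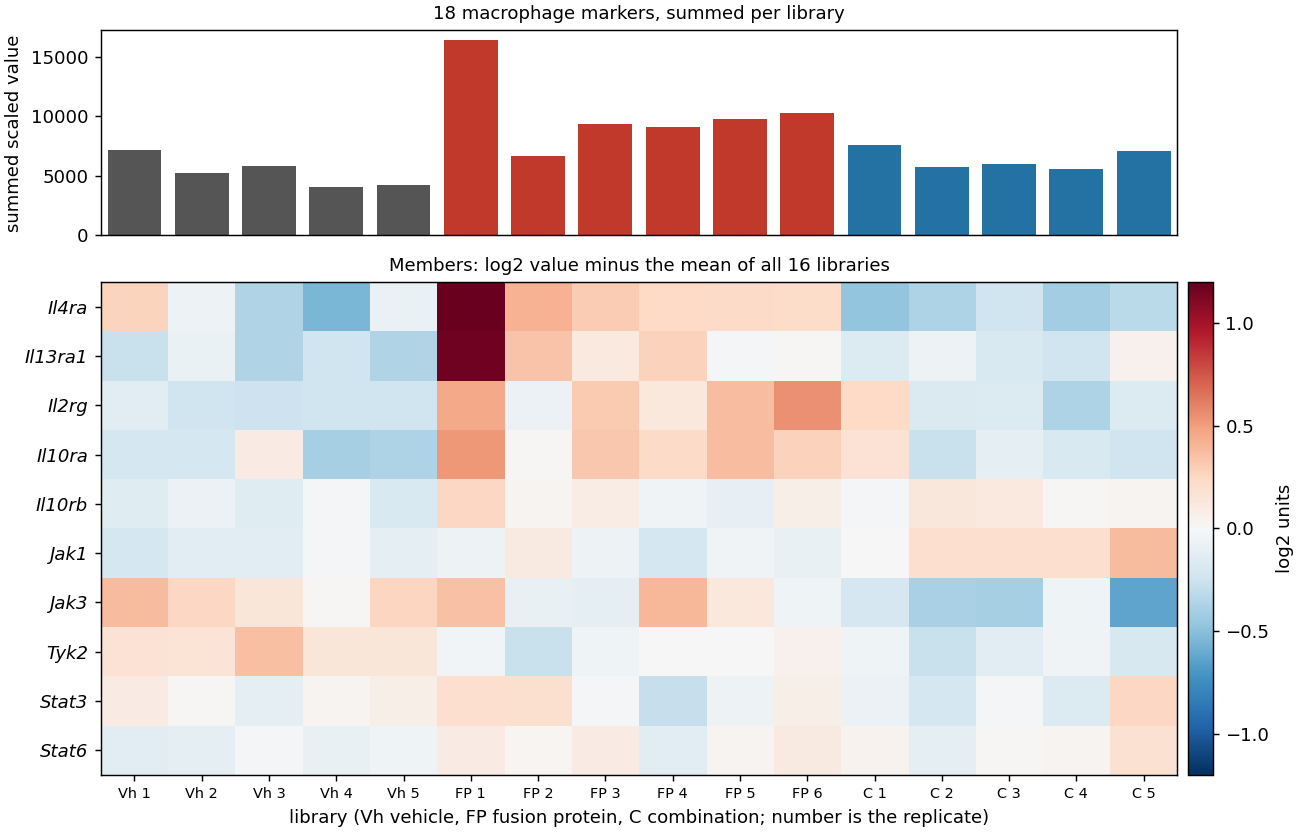
Top, summed scaled value of 18 macrophage markers in each of the 16 libraries. Bottom, log2 value of each member minus its mean over all 16 libraries (colour, log2 units). Fusion protein replicate 1 has the highest macrophage sum (16393) and the darkest cells in Il4ra and Il13ra1. Jak3 has its lowest mean in the combination libraries, which overlap with the fusion protein libraries, and Stat3 and Stat6 show no block of colour by group.

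The second comparison asks how the unlinked cytokines changed the same genes against the same vehicle libraries. None of the 5 receptor chains passed (limma adjusted p at or above 0.0506, with 1 of 5 at an unadjusted p under 0.05), while all 3 kinases did, Jak1 higher and Jak3 and Tyk2 lower. Of the 10 members 1 rose, 2 fell and 7 did not pass. Over all tested genes 36.5% were called, 24.2% higher and 12.3% lower. Combination libraries lay wholly above vehicle for 2 members, Il10rb and Jak1, and wholly below it for 2, Jak3 and Tyk2, against 15.1% and 7.91% of all tested genes.

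Jak1 (ENSMUSG00000028530, chromosome 4, 101152367 to 101265282), the kinase on the alpha chains of both receptors, had scaled values of 10900, 11487, 11484, 12576 and 11637 in vehicle and of 12609, 14594, 14582, 14539 and 16572 with the combination. Every combination library lay above every vehicle library, the nearest pair by little. The mean was 1.26 times that of vehicle and the log2 difference 0.32 ± 0.08 (adjusted p = 0.00292). With quantile normalization the difference was 0.10 and did not pass (adjusted p = 0.0895), and with the GC and length trends removed it was 0.25 (adjusted p = 0.00149).

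Jak3 (ENSMUSG00000031805, chromosome 8, 71676296 to 71690575), the kinase of the common gamma chain, had scaled values of 148, 127, 112, 95 and 128 in vehicle and of 70, 52, 51, 87 and 33 with the combination. The combination libraries lay wholly below vehicle. The mean was 0.48 times that of vehicle, and the log2 difference was -0.54 ± 0.12 (adjusted p = 0.00133), or -1.10 on the scale of log2 of the scaled value plus 1. Removal of those trends ended the call (-0.22, adjusted p = 0.169). Jak3 had the highest GC content of the members (56.86%), and the slope of the libraries on GC content ran from 0.0 to 0.158 log2 units per SD in vehicle and from -0.148 to -0.028 in the combination. Its exons share 404 bases with those of Insl3 on the same strand, so reads of both genes may not have been told apart.

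Tyk2, which serves both Il10rb and Il13ra1, had scaled values of 216, 172, 199, 217 and 185 with the combination, again below all vehicle libraries. The log2 difference was -0.33 ± 0.07 (adjusted p = 0.00157), and it too ended as a call once the GC and length trends were removed (-0.14, adjusted p = 0.118). Tyk2 was thus called lower in both treated groups as tested. After that removal both differences were still negative but neither passed. The comparisons share the vehicle libraries, so these calls are not independent of each other. Tyk2 shares 554 exonic bases with 1700084C06Rik on the opposite strand, and whether strand was used in counting is not given in the sources used here.

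Among the receptor chains Il4ra differed by -0.21 ± 0.17 (95% interval -0.56 to 0.143), Il13ra1 by 0.14 ± 0.16 (-0.2 to 0.485), Il2rg by 0.09 ± 0.11 (-0.138 to 0.323) and Il10ra by 0.09 ± 0.11 (-0.131 to 0.312). The scaled values of Il13ra1 were 377, 413, 372, 352 and 455. Those of Il2rg were 90, 48, 49, 33 and 49 and those of Il10ra 145, 83, 103, 93 and 86, so combination replicate 1 was the highest of its group in both. It also had the highest macrophage sum of its group (7557), and the lowest Il4ra (751). Il10rb was 702, 795, 782, 723 and 732, above every vehicle library, with a log2 difference of 0.17 ± 0.07 that just missed the threshold (adjusted p = 0.0506). It passed under 9 of 29 alternatives, with adjusted p from 0.00896 to 0.147 over all of them.

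Stat3 (5867, 5311, 6085, 5492 and 7373 with the combination) and Stat6 (2447, 2180, 2386, 2424 and 2706) overlapped with vehicle. Neither passed, with 95% intervals of -0.263 to 0.134 and -0.025 to 0.25. Their values depend on the scaling. With quantile normalization Stat3 differed by -0.23 (adjusted p = 0.0357) and Stat6 by -0.02, and with the GC and length trends removed Stat6 differed by 0.20 (adjusted p = 0.0126). Of the 18 macrophage markers 2 rose, 0 fell and 16 did not pass in this comparison, where 24.2% of all tested genes were called higher. The 2 were Mrc1 (0.47 ± 0.15), the mannose receptor, and Cd163 (0.33 ± 0.11), the haemoglobin scavenger receptor. Of 9 satellite glial markers 5 rose, among them Ednrb, Fabp7, Cadm2 and Glul, and 1 fell (Sox10). Of 15 neuronal markers 5 rose (Snap25, P2rx3, Tac1, Calca and Trpv1) and 2 fell, among them Rbfox3. The part of these cells in the kinase differences was not tested. Only 1 vehicle library has a late number, so no comparison within the late libraries was made. With a term for the late numbers in the model Jak1 differed by 0.32 (adjusted p = 0.0221), Jak3 by -0.51 (adjusted p = 0.0172) and Tyk2 by -0.37 (adjusted p = 0.00797).

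**Figure D4:**
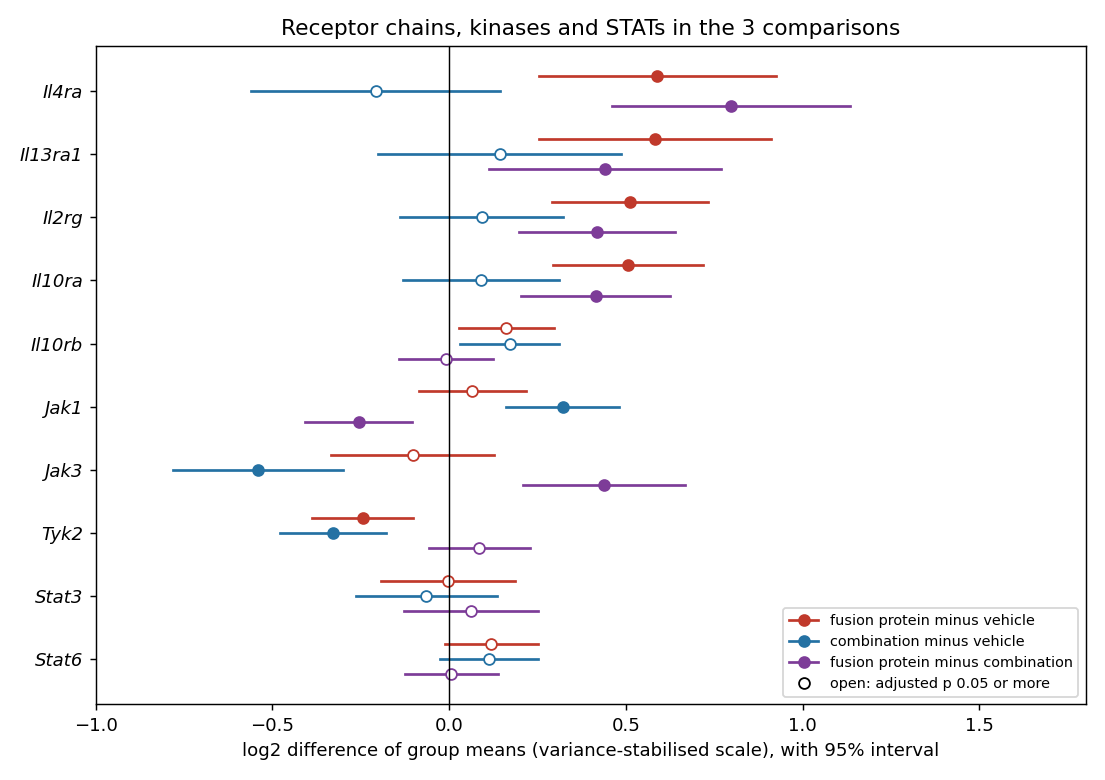
Log2 difference of group means with its 95% interval for each member in the 3 comparisons; filled points have a limma adjusted p under 0.05. The receptor chains Il4ra, Il13ra1, Il2rg and Il10ra are filled for the fusion protein against vehicle and against the combination and open for the combination against vehicle, while Jak1 and Jak3 are filled for the combination against vehicle.

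The third comparison sets the fusion protein against the unlinked cytokines and is the test of the difference between both treatments. Of the 10 members 5 were higher with the fusion protein, 1 was lower and 4 did not pass. Over all tested genes 29.5% were called, 7.35% higher and 22.2% lower. Calls leaned downward, with 24.9% of called genes higher, or 40.8% with quantile normalization. The members that were higher were the same 4 receptor chains and Jak3, and Jak1 was lower. The median log2 difference of the 5 chains was 0.42, against -0.09 over all tested genes.

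Il4ra differed most, by 0.80 ± 0.16 (adjusted p = 0.00514). Its fusion protein libraries (1289 to 2627) all lay above its combination libraries (751 to 900), a separation seen for 1 of the 10 members and upward for 3.09% of all tested genes. Without fusion protein replicate 1 the difference was 0.65 (adjusted p = 0.00106). Within the late label numbers alone (2 against 5) it was 0.59 (adjusted p = 0.000881). With both the GC and length trends and the late label number accounted for it was 0.56 and did not pass (adjusted p = 0.109).

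Il2rg differed by 0.42 ± 0.11 (adjusted p = 0.0107) and Il10ra by 0.41 ± 0.10 (adjusted p = 0.00957), with overlap through combination replicate 1 in both. Within the late label numbers they differed by 0.59 (adjusted p = 0.00672) and 0.45 (adjusted p = 0.0145). With the trends removed and the late label number accounted for, Il2rg differed by 0.46 (adjusted p = 0.0396), and Il10ra by 0.29 and did not pass (adjusted p = 0.145). Il13ra1 differed by 0.44 ± 0.16, just past the threshold (adjusted p = 0.0424), and this call ended under 14 of 30 alternatives, among them the omission of any single combination library, a fit of both groups alone (adjusted p = 0.0831) and a term for the late label number in the model (0.21, adjusted p = 0.352). Within the late label numbers Il13ra1 differed by 0.12 (adjusted p = 0.366). Without fusion protein replicate 1 the difference was 0.27 and passed (adjusted p = 0.024). Il10rb did not differ beyond the spread (95% interval -0.143 to 0.124).

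Jak3 was higher with the fusion protein than with the combination by 0.44 ± 0.11 (adjusted p = 0.0106), with scaled values of 80 to 151 against 33 to 87. Jak1 was lower by -0.26 ± 0.07 (adjusted p = 0.017). Both calls ended with the GC and length trends removed (0.29, adjusted p = 0.0907, and -0.12, adjusted p = 0.0966). When a term for the replicate number was added to that removal, Jak3 passed (0.34, adjusted p = 0.0404). With the late label number added instead, Jak3 did not pass (0.20, adjusted p = 0.364). For Jak1 the difference with quantile normalization was -0.08 (adjusted p = 0.193). Tyk2 (95% interval -0.057 to 0.229), Stat3 (-0.129 to 0.25) and Stat6 (-0.125 to 0.138) did not pass. Of the macrophage markers 8 of 18 were higher with the fusion protein and 1 was lower, Cd163 (-0.44 ± 0.11), and their part in the receptor differences was not tested.

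**Figure D5:**
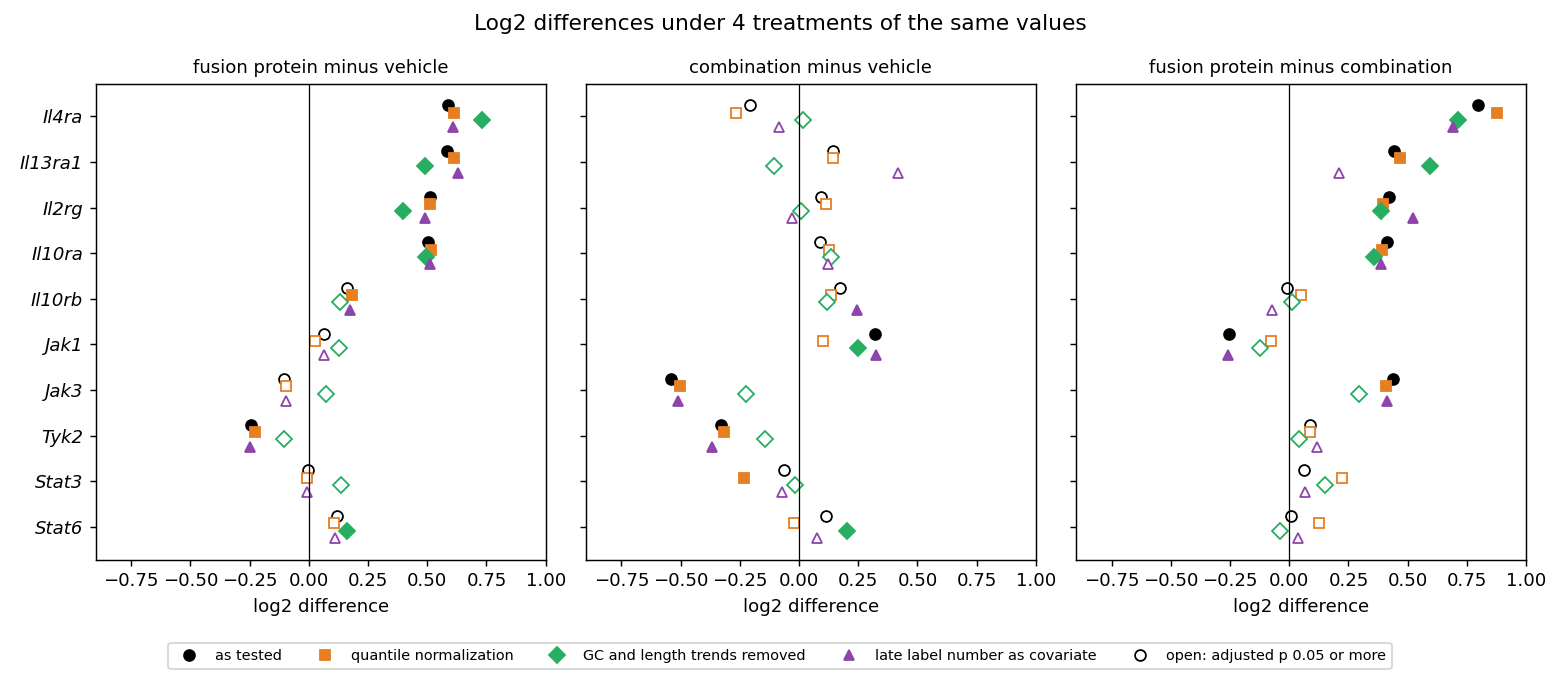
Log2 difference of each member as tested, after quantile normalization, after removal of the trends of each library with GC content and length, and with a term for the late label number; filled symbols have an adjusted p under 0.05. In the left panel Il4ra, Il13ra1, Il2rg and Il10ra stay filled under all 4 settings and Tyk2 opens when the trends are removed; in the middle panel Jak3 and Tyk2 open likewise, and in the right panel Il13ra1 opens with the late label number.

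Genes around the chain were taken from lists of ligands, related receptor chains, other JAK and STAT genes, and feedback regulators and adaptors, 45 in all, of which 28 were tested. Against vehicle 4 rose, 3 fell and 21 did not pass with the fusion protein, and 1 rose, 6 fell and 21 did not pass with the combination. In each, 7 of 28 were called, which is near or below the 25.8% and 36.5% over all tested genes. Between both treatments 11 were higher with the fusion protein, 1 was lower and 16 did not pass. Over all tested genes 29.5% were called in that comparison, 7.35% higher and 22.2% lower. Their median log2 differences were 0.02, -0.10 and 0.16, against -0.02, 0.06 and -0.09 over all tested genes. Only the members were followed under the alternatives, so whether calls of these other genes outlast the removal of GC and length trends is not known. The ligand genes lay far below the filter: Il4 had scaled values of at most 4, Il13 of at most 2 and Il10 of at most 6 in any library, and none of the 7 ligands could be tested.

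Of the other JAK and STAT genes, Stat2, which acts in interferon signalling, was higher with the fusion protein than with the combination by 0.37 ± 0.10 (adjusted p = 0.0159). Stat5a and Stat5b, which serve the gamma chain cytokines IL-2 and IL-7, fell with the combination against vehicle, by 0.32 and 0.19 on the log2 scale (adjusted p = 0.0234 and 0.0243). Of the related chains Il21r, which pairs with the gamma chain to bind IL-21, rose with the fusion protein by 0.44 ± 0.11 (adjusted p = 0.00611) and was 0.56 ± 0.11 above the combination. Crlf2, the receptor of TSLP, fell with the combination by 0.40 on the log2 scale (adjusted p = 0.0113).

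Among regulators, the phosphatase Ptpn6 (SHP-1), which dampens cytokine receptors in blood cells, rose with the fusion protein by 0.69 ± 0.19 (adjusted p = 0.0163), and Dok2, an inhibitory adaptor of such cells, by 0.42 ± 0.11 (adjusted p = 0.0102). The insulin receptor substrates, which IL-4 receptors also use, went the other way: Irs2 differed by -0.44 ± 0.11 with the fusion protein (adjusted p = 0.00732) and by -0.79 ± 0.12 with the combination (adjusted p = 6.36e-05). Its scaled values were 246 to 552 in vehicle, 200 to 238 with the fusion protein and 127 to 171 with the combination, with no overlap between any of the groups. Irs1 (-0.33 ± 0.11) and the regulatory subunit of PI3 kinase Pik3r1 (-0.25 ± 0.09) fell with the fusion protein. With the combination Stam2, an endosomal sorting adaptor, rose by 0.24 ± 0.06, and the phosphatase Ptpn1 fell by 0.52 on the log2 scale. Between both treatments Ptpn1 (0.61 ± 0.17), Dok2 (0.57 ± 0.11), the lipid phosphatase Inpp5d or SHIP1 (0.57 ± 0.17) and Crlf2 (0.41 ± 0.11) were higher with the fusion protein, and Pik3r1 (-0.40 ± 0.09) was lower. Cish, a feedback inhibitor that STAT5 induces, fell with the combination (-0.33 ± 0.10, adjusted p = 0.0137) and not with the fusion protein (-0.08 ± 0.09, adjusted p = 0.577). For Cish the test between both treatments gave 0.25 ± 0.09 and missed the threshold (adjusted p = 0.0506). Socs3, the feedback inhibitor that STAT3 induces, did not pass against vehicle in either treatment (0.44 ± 0.46 and -1.09 ± 0.48, adjusted p = 0.51 and 0.089) and differed between them by 1.52 ± 0.46 (adjusted p = 0.0256). Its scaled values were 142 to 1102 in vehicle, 285 to 1811 with the fusion protein and 115 to 159 with the combination. Socs1 stayed below the filter, with values of at most 27.

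The genes whose log2 values over the 16 libraries followed a receptor chain most closely were found by the root mean square difference of mean-centred values. For Il4ra, whose own values had an SD of 0.436 around their mean, these were Myd88, the adaptor of Toll-like receptors (root mean square difference 0.127), Adam8, a metalloprotease (0.143), and Galnt6, a glycosyltransferase (0.145). For Il10ra (SD 0.278) they were Aif1, a macrophage protein (0.121), Plbd1, a phospholipase-like protein (0.121), Ube2l6, the conjugating enzyme of ISG15 (0.129), and Rab7b, a late endosomal GTPase (0.139). For Il2rg (SD 0.285) they were Plbd1 (0.102), Shisa5 (0.126), Lck (0.13) and Il10ra itself (0.143). Aif1 and Lck are markers of macrophages and T cells in the lists used here.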

How the data were processed

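Libraries were made from polyA-selected RNA of 16 samples. Per the submitters' processing notes, FastQC, STAR, HTSeq and DESeq2 were used with build GRCm38, without versions. The deposited values are log2 values after the authors' variance-stabilising transform. With the lowest value (5.99) taken as 0, the inverse transform gave whole numbers for 100% of values within 0.01. GC content per gene was deposited as a percent. The deposited p-value and adjusted p-value columns name no comparison in their headers and were not used.

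Genes were tested when their mean was at least 1 above the lowest value (a scaled value of 31.8), with limma 3.58.1 in R 4.3.3: 1 model of all samples, 3 contrasts, robust eBayes with a mean trend, two-sided tests, Benjamini-Hochberg adjustment over 13385 genes, threshold 0.05. It was also run on simulated data with independent noise for each gene. Those data held no GC, length or label number trends, so they cannot vouch for calls that depend on such trends. Coordinates and exonic lengths are from GENCODE M21 (GRCm38), and promoters from RefSeq GRCm38.p6. Python 3.11.15 was used for motifs and plots. The labels number the samples 1 to 8 and 12 to 19, and a term for the later numbers was tried.

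The members and gene lists were chosen with earlier results of these data known. Named are all members, up to 8 other pathway genes of lowest p past the threshold per comparison, Il4, Il13, Il10, Socs1, Socs3 and Cish, and up to 4 nearest patterns of 3 chains. Some genes that this rule names are not reported here. Any other gene was chosen after its values were seen. Alternatives were filters, scalings, variance models, sample weights, blocks, thresholds, trend removal and the omission of each library.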

Additional observations from a re-analysis of the deposited data

Results flagged for a closer look

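Of 30 sets of values (10 genes in 3 groups), 6 held a library far from the others of its group by Dixon's criterion, where chance gives about 1 in 20. Fusion protein replicate 1 was such a library in Il4ra (scaled value 2627) and in Il13ra1 (1130), and it also had the highest macrophage marker sum of all libraries. Vehicle replicate 1 was high in Il2rg (51, the others 42 to 43) and vehicle replicate 3 in Tyk2 (320, the others 261 to 268). Fusion protein replicate 2 was low in Tyk2 (172) and replicate 4 low in Stat6 (2138).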

How the results depend on the processing

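For the fusion protein against vehicle 5 members were called as tested, 3 under the stricter filter, which tests 7 of the 10, and 2 at an adjusted p of 0.01. Between both treatments the 6 called became 3 under the stricter filter, 2 at an adjusted p of 0.01 and 1 with the GC and length trends removed together with the late label number, a setting chosen after seeing the data. For the combination against vehicle that setting called 1 in place of 3. With the trends alone removed, 660 of all tested genes were called higher and 908 lower between both treatments, against 984 and 2966 as tested. For the combination against vehicle these numbers were 2072 and 1420, against 3240 and 1651. Calls over all tested genes thus became fewer with the trends alone removed. Under that same setting Il4ra, Il13ra1, Il2rg and Il10ra kept their calls between both treatments, and Jak1 and Jak3 lost theirs. For the combination against vehicle Jak1 kept its call, Jak3 and Tyk2 lost theirs and Stat6 gained one. The all-gene numbers with the late label number added are not given here. The lower member counts are thus not read as particular to the members. Over the omissions of a library the counts ran from 4 to 6, from 5 to 6 and from 3 to 4. The share of all tested genes called is not given here for the filters, thresholds, omissions or block. Member counts under those settings are therefore not read as a result about the members. Whether the numbers of the replicates pair the samples is not known. The correlations of same-numbered samples ran from -0.196 to 0.598, and without those of differently numbered samples they cannot decide it. With the replicate block 5, 6 and 3 members were called, as without it. Only the fusion protein group has a replicate 6, so the block takes that library out of the comparisons. Of 881 values of single members under the alternatives, 35 lost a call, 19 gained one and 0 called values changed sign, while 37 uncalled values did. The 4 receptor chains kept their sign in all alternatives against vehicle with the fusion protein, and the cause of the lost calls was not tested. The read depth is unknown, which limits what can be said of genes near the floor.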

Other observations

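Il2rb, the beta chain that joins the common gamma chain in the receptors of IL-2 and IL-15, was below the filter and was chosen after its values were seen. Its scaled values were 6 to 12 in vehicle, 26 to 116 with the fusion protein and 16 to 32 with the combination. Both treated groups lay wholly above vehicle, and no test was made at these levels. Il10 itself was at scaled values of 2 to 6 with the fusion protein and of 1 to 2 in vehicle and with the combination, too near the floor to compare. Il13ra2, the decoy receptor of IL-13, had medians of 7, 7.5 and 16 in vehicle, fusion protein and combination libraries, also below the filter.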
